A study of Mus musculus with 8 samples.

Results

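The genes of the mitochondrial respiratory chain were examined in spleen RNA of 4 miR-155 knockout and 4 wild-type mice. Members were taken by name. All genes whose array symbol starts with Nduf, Uqcr or Atp5, the 4 genes Sdha to Sdhd, and those named Cox4 to Cox8 were considered. This gave 87 genes of 24203 on the array, covered by 126 of 44170 features. By name, 41 belong to complex I, 4 to complex II, 7 to complex III, 19 to complex IV and 16 to complex V. A gene with several features is represented by its brightest one, judged by the mean of its log2 values on all arrays.

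The respiratory chain sits in the inner mitochondrial membrane. Complexes I and II pass electrons from NADH and succinate to ubiquinone, complex III passes them to cytochrome c, and complex IV hands them to oxygen. Complexes I, III and IV pump protons, and complex V, the ATP synthase, uses the proton gradient to make ATP. Nuclear genes encode most subunits, and a small core is encoded by mitochondrial DNA. In lymphocytes and macrophages, which are abundant in spleen, respiration is known to shift with activation, and miR-155 is known as a regulator of such activation.

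The knockout animals are named Mim1-5, Mim1-6, Mim2-2 and Mim2-3 in the labels, with the genotype mir-155 knockout and spleen as the tissue. The wild-type animals are numbered 1 to 4. Mim1-5, Mim1-6 and wild-type animals 1 and 3 are labelled female, the other 4 male, so that 2 animals stand for each genotype and sex. Age, strain, the deleted segment and any treatment are not given in the sources used here. Each array was hybridised with Cy3-labelled RNA of 1 animal in 1 colour, and all values below are log2 of the deposited RMA intensity. Per-animal values are listed in the order Mim1-5, Mim1-6, Mim2-2, Mim2-3, then wild type 1 to 4.

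The arrays do not all follow their labels. The random probes, which match no transcript by design, read log2 4.94 to 5.24. Spleen markers were measured (10 of 10 B-cell, 10 of 10 T-cell and 10 of 10 macrophage genes lay above the random probes on all 8 arrays). The milk protein gene Csn2 nevertheless read 8.22 to 13.90 in knockout and 14.90 to 15.41 in wild-type animals, and 13 of 15 mammary epithelium genes lay above the random probes on all 8 arrays. Xist, which is transcribed from the inactive X of females, read 9.52 to 10.91 on arrays labelled female and 8.35 to 11.10 on those labelled male. The Y-linked Ddx3y read 6.82 to 8.83 and 6.26 to 8.78, so these genes did not separate the labelled sexes. By genotype, Ddx3y read 8.39 to 8.83 in knockout and 6.26 to 7.33 in wild-type animals, without overlap. The Y-linked Eif2s3y read 8.60 to 9.39 and 7.15 to 8.265, also without overlap, while Kdm5d and Xist overlapped between the genotypes. The cause was not tested. The arrays of Mim2-2 and Mim2-3 stood apart. Over all genes they correlated with the other 6 at r = 0.828 to 0.889, while the other 6 correlated with one another at 0.919 to 0.949. Over the 87 respiratory chain genes the same ranges were 0.936 to 0.960 and 0.970 to 0.985. These correlations are across genes and describe the arrays only.

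Many nuclear genes of the chain are known to be driven through the promoter factors NRF1, YY1, the ETS-family factor GABP and the estrogen-related receptors. RefSeq promoters in build GRCm38.p6, from 250 bases before to 50 bases after the start of transcription, were at hand for 71 of the 87 genes. They were searched on both strands for exact letters. The NRF1 letters GCGCATGCG occur in 9 of 71 (12.7%), against 1.95% of 27025 promoters of all genes, and the YY1 letters AAGATGGCG in 7 (9.86%) against 1.64%. The ETS letters CCGGAAGTG occur in 2 of 71 (2.82%) against 2.25%, and the estrogen-related receptor letters TCAAGGTCA in 2 (2.82%) against 0.466%. A match describes the letters in this window and does not show binding. The windows below show the 9 NRF1 matches, because this motif was the one found most often. Capitals mark the motif, in 6 genes as 10 bases where matches on both strands overlap, and each window runs 5′ to 3′ on the strand of its gene.
Atp5g2: ggctccggccGCGCATGCGCagagccttcc
Atp5k: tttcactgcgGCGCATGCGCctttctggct
Atp5l: aaccaataaCGCATGCGCatttccccca
Cox6a1: caggaacgggGCGCATGCGCgctctcgctc
Ndufa8: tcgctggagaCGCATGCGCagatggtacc
Ndufa11: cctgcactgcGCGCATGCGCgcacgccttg
Ndufaf4: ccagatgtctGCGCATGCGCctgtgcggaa
Uqcr: atcgccttcaCGCATGCGCtatacgtctg
Uqcrc1: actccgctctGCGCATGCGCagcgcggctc

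The motif of Uqcr begins 5 bases before the start of transcription (window chr10:80406808-80406836), that of Ndufa8 9 bases before it (chr2:36049329-36049357), that of Atp5g2 42 bases (chr15:102671070-102671099), that of Atp5k 50 bases (chr5:108434430-108434459) and that of Ndufa11 60 bases (chr17:56717692-56717721). In Ndufaf4 it begins 113 bases before the start (chr4:24897960-24897989), in Cox6a1 162 bases (chr5:115349101-115349130) and in Atp5l 241 bases (chr9:44920965-44920992), while in Uqcrc1 it lies 30 bases after the start (chr9:108936668-108936697). The genes with this motif did not share a direction between genotypes. Their knockout minus wild type differences were 0.61 for Ndufaf4, 0.22 for Atp5l, 0.09 for Atp5k, 0.03 for Ndufa8, -0.03 for Atp5g2, -0.29 for Ndufa11, -0.39 for Cox6a1, -0.40 for Uqcr and -0.41 for Uqcrc1.

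All 7 YY1 matches lie after the start of transcription. Shown are Atp5j2 and Ndufs7, whose values did not overlap between the genotypes, and Ndufa9 beside them.
Atp5j2: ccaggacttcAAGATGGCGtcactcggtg
Ndufa9: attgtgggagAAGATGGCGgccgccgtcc
Ndufs7: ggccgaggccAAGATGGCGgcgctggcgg

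These windows lie at chr5:145191500-145191528 for Atp5j2, chr6:126849097-126849125 for Ndufa9 and chr10:80249463-80249491 for Ndufs7, with the motif 23, 29 and 24 bases after the start. Atp5j2 differed by -0.29, Ndufa9 by -0.13 and Ndufs7 by 0.30. The other 4 genes with these letters, Atp5sl, Ndufc1, Ndufs4 and Ndufs6, differed by 0.33, 0.31, 0.26 and -0.17.

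Respiratory chain genes differed little between the genotypes. Of the 87, 51 read higher in knockout animals and 36 lower, and their median difference was 0.05 in log2 units, against 0.06 over all 24203 genes. No member passed the limma test after adjustment over all features, where 0 of 44170 features passed (0%; with trend and robust eBayes 16 features passed, 0 of them of a member). Before adjustment, 5 members read higher and 2 lower at p under 0.05, which is 5.75% and 2.30% of the 87, against 7.70% and 6.61% of all genes. The values of the genotypes did not overlap for 5 members that were higher and 2 that were lower in knockout animals, against 5.27% and 2.55% of all genes. Both shares of members lie near or under those of all genes, so neither is a result about the respiratory chain. How many of the 7 genes stayed at unadjusted p under 0.05 varied with the animal left out. Ndufaf1 was the 1 member under 0.05 without Mim2-2 and also without Mim2-3, against 11.2% and 9.92% of genes. The count was 5 without Mim1-5 (4 among the 7), against 13% of genes, and 6 without Mim1-6 (all among the 7), against 16.5%. It was 4 without wild-type animal 1 (all 4 among the 7), against 14.1%, and 4 without animal 2 (2 among the 7), against 9.02%. Without animal 3 it was 3 and without animal 4 it was 2 (all among the 7), against 14.9% and 8.64%. With all arrays the share of genes was 14.3%. Members whose genotypes did not overlap numbered 17 without Mim1-6 (19.5%, against 16.5% of genes) and 11 without Mim1-5 (12.6% against 13.5%). They numbered 11 without wild-type animal 2 (12.6% against 11.4%), 11 without animal 3 (12.6% against 11.3%) and 12 without animal 4 (13.8% against 11.0%). RNA of whole tissue cannot tell fewer cells of a type from less RNA per cell.

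**Figure D1:**
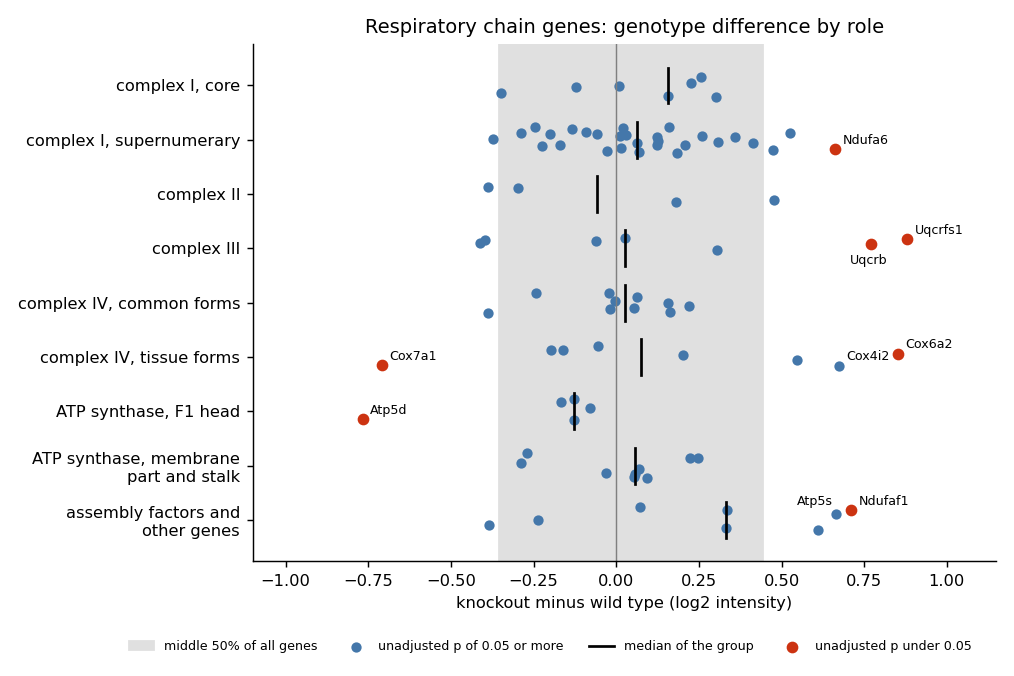
Difference between knockout and wild type on the log2 scale for each of the 87 respiratory chain genes, grouped by role on the vertical axis, with the median of each group as a black line and the middle 50% of all genes as a grey band. The 7 red points have an unadjusted limma p under 0.05, and no gene passed after adjustment.

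The range of the differences was narrow. They ran from -0.77 to 0.88, none exceeded 1 in size (0%), whereas 11.5% of all genes did, and the median size was 0.20 against 0.40. For 60 of 87 members (69.0%) the 95% confidence interval lay within 1 log2 unit of 0 on either side, which was so for 24.0% of all genes. Animals of 1 genotype also varied little, with a median SD of 0.28 against 0.58 over all genes. Respiratory chain genes are bright on the array, and brightness goes with a smaller spread, so genes with a mean log2 intensity of at least 10 were taken as a second background. Among the 65 members at that level the median SD was 0.26, against 0.35 over 3747 genes, and 54 intervals (83.1%) lay within 1 log2 unit, against 44.1%. In this class 3 members were higher and 1 lower at unadjusted p under 0.05 (6.15% of 65), against 9.05% and 11.5% of genes (20.5% in all), and 4 had genotypes that did not overlap against 16.4%. These shares are descriptions and were given no test.

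**Figure D2:**
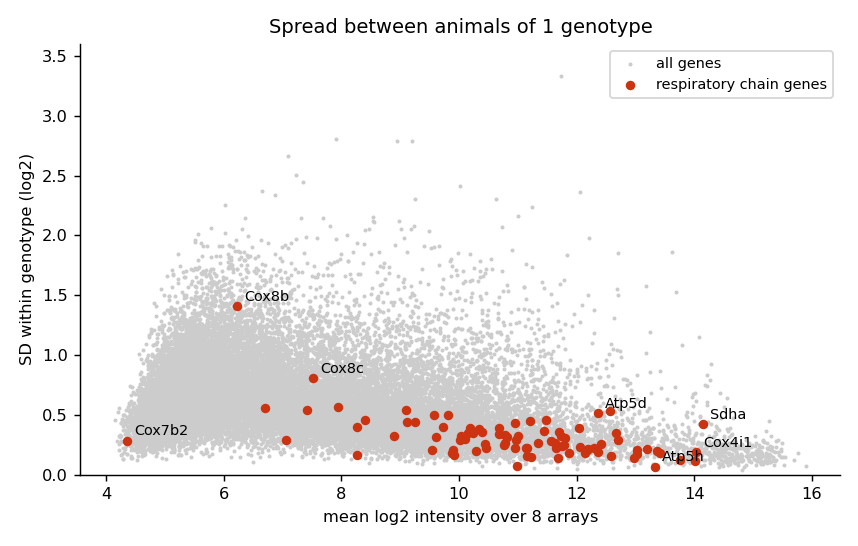
SD between animals of the same genotype (log2 units) against the mean log2 intensity over 8 arrays, for all 24203 genes in grey and the 87 respiratory chain genes in red. Most members lie to the right and low, and the tissue forms Cox8b and Cox8c have the largest spread among them.

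The steadiest members belonged to complexes I and V. Atp5h, the d subunit of the ATP synthase stalk, read 13.37, 13.39, 13.41 and 13.28 in knockout and 13.27, 13.42, 13.29 and 13.25 in wild-type animals, a range of 0.17 over all 8. Ndufb9, an accessory subunit of the membrane arm of complex I, spanned 0.22 units. At the other end Cox8b spanned 4.22, Cox8c 2.08, Cox4i2 2.03 and Atp5d 1.99. The first 3 of these are tissue forms of complex IV subunits.

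Array by array, the members moved by small amounts around their means. The median deviation of the 87 genes from their own mean over 8 arrays was 0.01, -0.08, 0.26 and -0.00 in the knockout and 0.12, 0.07, -0.13 and -0.12 in the wild-type animals. Mim2-2 stood highest, and the genotypes overlapped. The same value for all genes lay between -0.09 and 0.08. By complex, Mim2-2 was high for complexes I (0.26), III (0.37) and IV (0.32) but not for complex II (-0.13). Mim2-3 read -0.32 for complex II, the lowest value of any complex on any array.

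**Figure D3:**
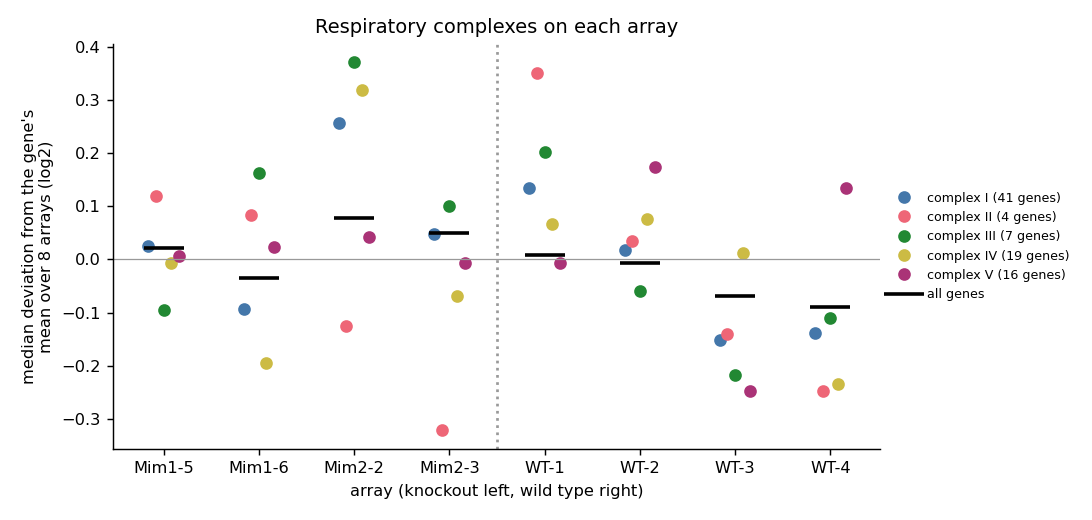
Median deviation of the genes of each complex from their mean over 8 arrays (log2 units) on each array, with all genes as black bars and a dotted line between knockout and wild type. Complexes I, III and IV are highest on Mim2-2 at 0.26 to 0.37, and complex II is lowest on Mim2-3 at -0.32.

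Complex I takes electrons from NADH through a core inherited from bacteria, around which many supernumerary subunits are built. Among the 7 nuclear core subunits 5 read higher in knockout animals, with a median of 0.16, and none had an unadjusted p under 0.05. Ndufs7, which carries the last iron-sulfur cluster before ubiquinone, read 12.55, 12.56, 12.89 and 12.94 in knockout and 12.32, 12.52, 12.45 and 12.45 in wild-type animals. All knockout values lay above all wild-type values, by as little as 0.03 at the closest pair. The difference of 0.30 ± 0.25 (SE) did not pass (limma, adjusted p = 0.614). Every SE here and below is the moderated one of limma, which draws the variance of each feature toward a value common to all features. In steady genes it can exceed the SD of the animals, as for Ndufs7 (SD 0.21 in knockout and 0.08 in wild-type animals). The catalytic entry subunit Ndufv1, which binds FMN, differed by -0.35 ± 0.34 (SE), with Mim2-3 at 9.93 and the other 7 animals between 10.77 and 11.30. Ndufs1, Ndufs8, Ndufv2 and Ndufs3 differed by 0.23, 0.16, 0.01 and -0.12.

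The 29 supernumerary subunits of complex I, with Ndufa4 counted among them by name, had a median difference of 0.06. Of these 19 were positive, and 23 intervals lay within 1 log2 unit. Ndufa6, a LYR-motif subunit that docks the acyl carrier protein, lies at chr15:82180592-82184721 (MM9). It read 11.85, 11.64, 12.20 and 12.21 in knockout and 11.37, 11.33, 11.44 and 11.11 in wild-type animals. The genotypes did not overlap, and both Mim2 animals were highest. The difference was 0.66 ± 0.28 (SE), with an exact permutation p of 0.0286, the smallest that 70 arrangements can give, and an adjusted limma p of 0.344. Every gene without overlap has this exact p, here and below, and 7.83% of all genes are without overlap. The exact p therefore adds no support to the lack of overlap. Ndufab1, the acyl carrier protein itself and partner of Ndufa6, differed by 0.36 ± 0.33 (SE) with overlapping genotypes.

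Other accessory subunits with larger differences were Ndufs5 at 0.53 ± 0.28 (SE), Ndufb4 at 0.48 ± 0.27 and Ndufb3 at 0.41 ± 0.27, and on the low side Ndufv3 at -0.37 ± 0.28 and Ndufa11 at -0.29 ± 0.29. Their genotypes overlapped. Ndufs4, whose loss is known to cause mitochondrial disease in mice and people, differed by 0.26 ± 0.33. Ndufa13, known also as Grim-19, differed by 0.02 ± 0.27, and Ndufa4, now assigned to complex IV despite its name, by 0.18 ± 0.28.

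Assembly factors and genes that carry a subunit-like name without being a subunit had a median of 0.33, with 6 of 8 positive. Over all genes the median was 0.06, with 13054 of 24203 positive. The separate list of 32 assembly factors outside these names, described below, had a median of 0.04 with 18 positive. Ndufaf1, a chaperone for the membrane arm of complex I, lies at chr2:119481181-119488535 (MM9). Its values were 8.74, 8.65, 8.59 and 8.47 in knockout and 8.13, 7.66, 7.83 and 7.99 in wild-type animals. On this feature every knockout animal lay above every wild-type animal, with both name prefixes alike. The difference of 0.71 ± 0.26 (SE) had the smallest p of the 87 members (limma, p = 0.023, adjusted p = 0.311), the exact permutation p was 0.0286, and the fold on the linear scale was 1.64. In labelled females the log2 difference was 0.72 and in labelled males 0.71.

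Ndufaf4, another complex I assembly factor, read 8.44, 8.07, 9.34 and 8.96 in knockout and 8.30, 8.21, 8.25 and 7.62 in wild-type animals. The Mim2 animals were high and the Mim1 animals lay close to wild-type animals 1 to 3, and the overall difference was 0.61 ± 0.35 (SE). Ndufaf3 and Ndufaf2 differed by -0.38 and -0.24. Atp5s and Atp5sl, now named Dmac2l and Dmac2, differed by 0.67 ± 0.37 (SE) and 0.33 ± 0.30. The supercomplex factor Cox7a2l, whose name recalls a subunit of complex IV, differed by 0.33 ± 0.27, and Cox4nb, now Emc8 of the endoplasmic reticulum membrane complex, by 0.07 ± 0.31. Without these 8 genes the 79 subunits had a median difference of 0.03.

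Complex II, succinate dehydrogenase, has 4 subunits, all nuclear, and also works in the tricarboxylic acid cycle. Its flavoprotein Sdha differed by 0.18 ± 0.30 (SE) and its iron-sulfur protein Sdhb by 0.48 ± 0.36. The membrane anchors read lower, Sdhc by 0.30 on the log2 scale (-0.30 ± 0.28) and Sdhd by 0.39 (-0.39 ± 0.30). Sdhb read 9.55, 9.20, 10.78 and 9.71 in knockout and 9.49, 9.45, 9.32 and 9.08 in wild-type animals, with Mim2-2 alone well above the rest on this feature. A second feature of Sdhb read 10.37 on Mim2-2 and 10.18 on Mim2-3, against 8.95 to 9.78 elsewhere, and differed by 0.71 ± 0.32. Sdhd read 11.02, 10.93, 10.54 and 10.64 against 11.52, 11.07, 10.74 and 11.35, with overlap. None of the 4 had an unadjusted p under 0.05.

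Complex III held the member with the largest difference, and its subunits did not share a direction. Uqcrfs1 is the Rieske iron-sulfur protein, which carries electrons from ubiquinol toward cytochrome c1, and lies at chr13:30632320-30637192 (MM9). It read 11.14, 10.85, 11.30 and 11.18 in knockout and 10.87, 10.26, 10.22 and 9.59 in wild-type animals. Mim1-6 and wild-type animal 1 crossed by 0.02, and the other animals were separate. The difference was 0.88 ± 0.33 (SE; limma, p = 0.0252, adjusted p = 0.315) with an exact permutation p of 0.0571.

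Uqcrb, a small subunit of the ubiquinone-binding region, lies on the same chromosome at chr13:67001552-67006277 (MM9). It read 12.08, 11.86, 12.29 and 12.11 in knockout and 11.70, 11.50, 11.42 and 10.63 in wild-type animals. The genotypes did not overlap, with wild-type animal 4 lowest, as it also was for Uqcrfs1. The difference was 0.77 ± 0.32 (SE; limma, p = 0.0383, adjusted p = 0.341), and the exact permutation p was 0.0286. The hinge subunit Uqcrh differed by 0.30 ± 0.26.

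The core subunits Uqcrc1 and Uqcrc2, related to mitochondrial processing peptidases, differed by -0.41 ± 0.27 (SE) and 0.03 ± 0.30. Uqcr, now Uqcr11, differed by -0.40 ± 0.28, while its second feature gave 0.21, and Uqcrq differed by -0.06 ± 0.28. So 2 of 7 genes had an unadjusted p under 0.05, both higher in knockout animals, against 7.70% of all genes in that direction. Another 2 differed by about -0.4, and the median of the complex was 0.03.

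Complex IV contains subunits with a common form and forms used in particular tissues. The 10 common forms were among the steadiest genes, with a median difference of 0.03, a median SD of 0.20 within genotype, and all 10 intervals within 1 log2 unit of 0. Cox4i1 differed by 0.06 ± 0.27 (SE), Cox5a by 0.16 ± 0.28, Cox6b1 by -0.00 ± 0.27, Cox7c by 0.05 ± 0.28 and Cox8a by 0.16 ± 0.27. The lowest of them, Cox6a1, read 12.88, 12.72, 13.04 and 12.71 in knockout and 13.46, 13.25, 13.01 and 13.18 in wild-type animals. Mim2-2 and wild-type animal 3 crossed by 0.03, and the difference was -0.39 ± 0.27.

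The 8 tissue forms spread more widely, with a median SD of 0.52 and no interval within 1 log2 unit among those above the random probes. Ndufa4l2, counted with complex I by name, is 1 of the 8. Cox6a2, the heart and muscle form paired with Cox6a1, read 8.33, 8.39, 8.85 and 9.20 in knockout and 8.04, 7.72, 8.25 and 7.36 in wild-type animals. The genotypes did not overlap, and the Mim2 animals were highest. Its difference was 0.85 ± 0.34 (SE; limma, p = 0.0324, adjusted p = 0.332), with an exact permutation p of 0.0286. Cox7a1, the heart and muscle form paired with Cox7a2, went the other way. It read 6.88, 6.17, 6.91 and 6.89 in knockout and 7.57, 7.58, 7.34 and 7.19 in wild-type animals, again without overlap, and differed by -0.71 ± 0.29 (SE; limma, p = 0.0391, adjusted p = 0.343) with an exact permutation p of 0.0286. Its common partner Cox7a2 differed by -0.02 ± 0.27.

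Cox4i2, the lung and oxygen-responsive form of subunit 4, differed by 0.67 ± 0.40 (SE), and Ndufa4l2, a hypoxia-responsive relative of Ndufa4, by 0.55 ± 0.29. Both overlapped between genotypes. Of the forms known from testis, Cox6b2 differed by -0.20 ± 0.39 and Cox8c by -0.16 ± 0.52, and Cox7b2 never exceeded the random probes (4.01 to 4.74), so it gives no difference. None of 8 male germ cell markers lay above the random probes on all 8 arrays.

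Markers of tissues that use these forms were set beside them. Of 12 skeletal and heart muscle genes 1 was higher and 1 lower at unadjusted p under 0.05, against 7.70% and 6.61% of all genes. Myh4 differed by 1.11 and Mb, myoglobin, by -1.75, both without overlap, and Ckm, muscle creatine kinase, read 4.28 to 6.12. The summed linear intensity of these 12 was 983 to 1930 in knockout and 1110 to 2550 in wild-type animals. The 9 adipocyte genes summed to 3370 to 34800 in knockout and 3810 to 8070 in wild-type animals. The fat hormone gene Adipoq read 7.14, 7.33, 12.93 and 11.47 in knockout and 6.751 to 7.996 in wild-type animals, whereas Ucp1, which defines brown fat, read 4.27 to 6.63. None of these markers was at the random probes on all 8 arrays. Their part in the values of Cox6a2, Cox7a1 and Cox8b was not tested.

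**Figure D4:**
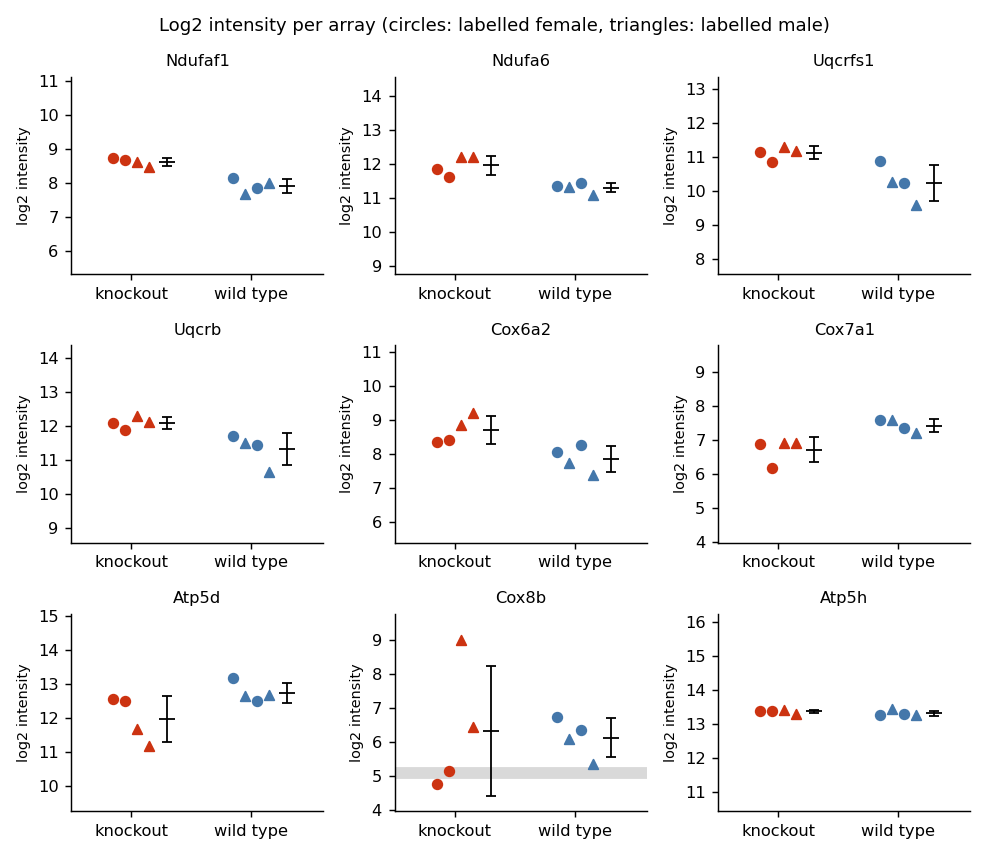
Log2 intensity of 9 respiratory chain genes in each animal, with circles for labelled females, triangles for labelled males and the mean with SD of 4 animals in black; each panel spans the same number of log2 units, and the grey band for Cox8b is the range of the random probes. Ndufaf1, Ndufa6, Uqcrb, Cox6a2 and Cox7a1 do not overlap between genotypes, Uqcrfs1 and Atp5d do, Cox8b ranges over 4.22 units and Atp5h over 0.17.

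Complex V consists of the F1 part, where ATP is made, and a membrane part that carries the proton flow, with a stalk. All 5 F1 genes read lower in knockout animals over all arrays, with a median of -0.13, but the direction turned between the labelled sexes. In females, which is also the comparison without the Mim2 arrays, 4 of 5 read higher with a median of 0.09, and in males 0 of 5 with a median of -0.58. Atp5d, the delta subunit of the central stalk at chr10:79605150-79608558 (MM9), had the largest difference of them. It read 12.57, 12.50, 11.67 and 11.18 in knockout and 13.17, 12.64, 12.51 and 12.67 in wild-type animals. Both Mim2 animals were low, and Mim1-5 crossed with wild-type animal 3 by 0.06. The difference was -0.77 ± 0.32 (SE; limma, p = 0.0406, adjusted p = 0.345), with an exact permutation p of 0.0571, and a second feature of the gene gave -0.79.

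The catalytic subunits Atp5a1 and Atp5b differed by -0.13 ± 0.36 (SE) and -0.17 ± 0.27, the rotor shaft Atp5c1 by -0.13 ± 0.35 and Atp5e by -0.08 ± 0.27. Mim2-3 was the lowest of the 8 animals for Atp5a1 at 11.51, Atp5b at 13.05, Atp5c1 at 10.42 and Atp5d at 11.18, but not for Atp5e. The median deviation of the 5 F1 genes on that array was -0.79, against -0.16 on Mim2-2 and -0.01 to 0.30 on the other 6. Mammary epithelium genes were also low on the Mim2 arrays, at -2.75 on Mim2-2 and -1.45 on Mim2-3 against 0.42 to 1.12 on the other 6. Their lowest array was Mim2-2, whereas that of the F1 genes was Mim2-3. On Mim2-3 tricarboxylic acid cycle genes stood at -0.55 (0.23 on Mim2-2), electron carriers at -0.37 (0.04) and biogenesis regulators at -0.29 (0.06). Mitochondrial ribosome genes stood there at 0.08, assembly factors outside the names at 0.06, import genes at -0.03 and antioxidant enzymes at -0.13. The part of cell makeup in the F1 values was not tested.

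The 9 genes of the membrane part and stalk had a median difference of 0.06, and all 9 intervals lay within 1 log2 unit of 0. Atp5j2, the f subunit, read 13.72, 13.67, 13.67 and 13.38 in knockout and 13.95, 13.78, 13.96 and 13.90 in wild-type animals. Each knockout value lay under each wild-type value. The difference of -0.29 ± 0.26 (SE) did not pass (limma, adjusted p = 0.633), with an exact permutation p of 0.0286. This moderated SE exceeds the SD of the animals, 0.16 in knockout and 0.09 in wild type. Atp5o, which joins the stalk to the head, differed by -0.27 ± 0.26, and Atp5f1, now Atp5pb, by 0.25 ± 0.26. The 3 genes Atp5g1, Atp5g2 and Atp5g3 encode the same mature c subunit of the rotor ring and differed by 0.06, -0.03 and 0.07.

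The medians of complexes IV and V had opposite signs in the labelled sexes, a contrast given here as a description with no test. In females the median difference was -0.21 for complex IV and 0.10 for complex V, and in males it was 0.24 and -0.17. Complex I stood at 0.02 and 0.10, complex III at 0.07 and 0.11 and complex II at -0.06 and -0.19. Since both knockout males carry the Mim2 name and both knockout females the Mim1 name, sex and name prefix cannot be told apart, and the sex-linked genes above did not follow the labels.

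The interaction of genotype and labelled sex had an unadjusted p under 0.05 in 2 of 87 members (2.30%) against 13.6% of all genes, and no gene passed after adjustment (0%). Cox8b, the heart and muscle form of subunit 8 that is also known from brown fat, was the first. It read 4.76, 5.14, 8.98 and 6.43 in knockout and 6.73, 6.08, 6.34 and 5.36 in wild-type animals. Mim2-2 was highest and Mim1-5 lay under the random probes of its array. The difference was -1.58 in females and 1.99 in males, so that males minus females came to 3.57 ± 1.08 (SE; limma, adjusted p = 0.242). Cox6a2 differed by 0.22 in females and 1.49 in males, a gap of 1.27 ± 0.50 (SE; limma, adjusted p = 0.34). On the other side were Atp5a1 at 0.49 and -0.74, Atp5c1 at 0.32 and -0.58, and Atp5d at -0.31 and -1.23.

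Within males alone, 7 members had an unadjusted p under 0.05 against 24.2% of genes. They were Atp5d, Cox6a2, Cox8b, Ndufa6, Ndufaf4, Uqcrb and Uqcrfs1. After adjustment 1875 features (4.24%) and 1030 genes by their brightest feature (4.26%) passed there, and 0 members, of which Cox6a2 came closest with an adjusted limma p of 0.0601. Within females Cox7a1 was the 1 member at unadjusted p under 0.05, lower by 0.93 on the log2 scale (-0.93), against 5.15% of genes, and no gene passed after adjustment (0%). Between the labelled sexes Ndufa4l2 was the 1 member at unadjusted p under 0.05 (0.74 higher in males; limma, adjusted p = 0.551), against 9.36% of genes.

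**Figure D5:**
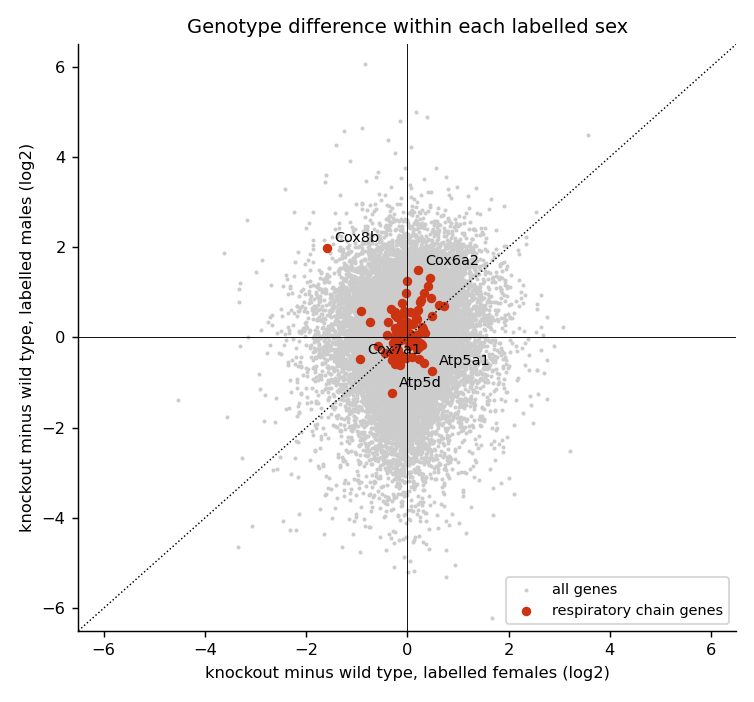
Knockout minus wild type in labelled males against labelled females (log2 units), for all 24203 genes in grey and the 87 respiratory chain genes in red; points on the dotted line differ equally in both. Cox8b lies farthest from the origin among the members, at -1.58 in females and 1.99 in males, and Cox6a2 reaches 1.49 and Atp5d -1.23 in males.

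With both Mim2 arrays left out, none of the 7 genes at unadjusted p under 0.05 on all arrays was under it, and Cox8b, which was not among them, was the 1 member that was (-1.58, lower in knockout animals), against 6.17% of genes. The genotypes of 14 members then did not overlap, against 16.4% of genes, and the median difference was -0.02. Ndufaf1 kept a difference of 0.72 there, while Uqcrfs1 came to 0.45 and Uqcrb to 0.41.

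Several features of 1 gene did not always give the same direction. Of 31 members with more than 1 feature, 14 had all features on the same side of 0. Of the 39 features that were not the brightest of their gene 22 shared its sign, and 18 of 27 did among those above the random probes on all 8 arrays. The second feature of Cox7b differed by 1.25 (limma, adjusted p = 0.279) where the brightest gave -0.02, and the second feature of Ndufv2 by -1.64 (limma, adjusted p = 0.328) where the brightest gave 0.01. These lay above the random probes on 5 and 6 arrays only. Over all 126 features 6 were higher and 4 lower at unadjusted p under 0.05, against 13.9% of all features.

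The subunits encoded by mitochondrial DNA have no named feature on this array. Of 7 unnamed features placed on the mitochondrial chromosome, 6 read 14.93 to 15.97, close to the highest value of any feature at 15.99, and differed by -0.06 to 0.10 between genotypes. Values this near the top of the scale can hide differences. The features were taken by position and not assigned to genes, so they need not represent subunits of the chain.

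Other mitochondrial genes were set beside the chain from fixed lists, each with the counts at unadjusted p under 0.05, to be read against 7.70% and 6.61% of all genes. Of 17 genes for electron carriers and ubiquinone synthesis 0 were higher and 3 lower, namely Coq6 (-1.30), Pdss2 (-0.86) and Coq7 (-0.82). Of 32 assembly factors outside the names above, 1 was higher, Sdhaf2 of complex II (0.82), and 1 lower, the heme A synthase Cox15 (-1.67). Cox15 read 7.85, 7.96, 6.47 and 6.26 in knockout and 8.53, 9.01, 8.32 and 9.37 in wild-type animals, without overlap. The complex IV assembly factor Fam36a, now Cox20, differed by 0.53 ± 0.26 (SE), also without overlap.

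Among 17 regulators of mitochondrial biogenesis 3 were higher and 2 lower. Tfam, which packages and transcribes mitochondrial DNA, read 10.28, 9.97, 10.56 and 10.54 in knockout and 9.66, 9.44, 9.47 and 9.54 in wild-type animals. Its values did not overlap, and it differed by 0.81 ± 0.27 (SE; limma, adjusted p = 0.295). Esrra, an estrogen-related receptor, differed by 0.69 and Polg2, the accessory subunit of mitochondrial DNA polymerase, by 1.04. The coactivator Ppargc1a differed by -1.14 and the polymerase Polg by -0.74. Ppargc1a was low on the Mim2 arrays (7.32 and 6.73, against 8.17 to 9.18 on the other 6).

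The tricarboxylic acid cycle and pyruvate entry had 1 of 21 higher, the succinyl-CoA ligase subunit Suclg1 (0.62), and 0 lower. The mitochondrial ribosome had 2 of 58 higher, Mrps31 (0.76) and Mrps25 (0.63), and 0 lower, with a median of 0.16. Import and carriers had 0 of 27 higher and 1 lower, the outer membrane channel Vdac1 (-1.59), which read 9.33 and 9.38 on the Mim2 arrays and 11.44 to 12.54 on the other 6. Antioxidant enzymes had 0 of 8 higher and 1 lower, Gpx4 (-0.82). No gene of these lists passed the limma test after adjustment.

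Most lists of cell type markers held larger shares at unadjusted p under 0.05 than the respiratory chain (8.05%) and all genes (14.3%). The erythroid list (8.33%) and the male germ cell list (12.5%) lay under the share of all genes. At that threshold 9 of 10 B-cell, 6 of 10 T-cell, 4 of 10 macrophage and 9 of 10 pancreatic acinar genes were higher in knockout animals, against 7.70% of all genes. Lower were 12 of 15 mammary epithelium genes, against 6.61%. Their summed linear intensity in knockout and wild-type animals was 14200 to 24000 against 5130 to 8020 for B cells, 6850 to 11500 against 4690 to 6430 for T cells and 23800 to 33600 against 17100 to 28900 for macrophages. For pancreatic acinar genes it was 2840 to 5830 against 626 to 862, and for mammary epithelium 7090 to 88900 against 112000 to 131000. Of 12 erythroid genes 0 were higher and 1 lower, and of 9 proliferation genes 0 were higher and 2 lower. Each list had 0 genes at the random probes on all 8 arrays, but only 5 of the 10 pancreatic acinar genes lay above them on all 8. The part of these markers in the differences of Ndufaf1, Ndufa6, Uqcrfs1, Uqcrb and Atp5d was not tested.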

How the data were processed

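The authors deposited 1 table per array, with a linear intensity per feature that the submitters' processing notes tie to RMA (background correction, normalization between arrays and summary of probes). No source used here gives its version. Per the file headers, the 126 features used carry 3 probes each, with positions in build MM9. A standard error score per feature, also deposited, entered no test. Intensities were taken to log2 with no second normalization. Knockout minus wild type was fitted with labelled sex as a term in limma 3.58.1 (R 4.3.3, lmFit and eBayes, two-sided, Benjamini-Hochberg over 44170 features, threshold 0.05); a fit with the interaction gave the values within each sex. The code was tested on simulated data. Single genes also had an exact two-sided permutation test over 70 arrangements, whose p is always 0.0286 where the genotypes do not overlap. The labels say that the spleens were separate, so each array was taken as 1 animal.

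Members and lists were chosen with earlier results of these data known, and roles, promoter motif letters and the log2 10 background after seeing the values. Named genes are the 5 smallest p per large complex, tissue forms, complex II, genes without overlap and 3 per direction of the interaction. Single genes outside that rule were named after their values were seen. Some genes that the names or the rule take are not reported here. All 87 members matched RefSeq by gene number. The number of arrays limits the precision.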

Additional observations from a re-analysis of the deposited data

Results flagged for a closer look

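In 78 groups of 4 animals, made of 39 named genes in each genotype, 3 held 1 animal far from its other 3, where chance alone gives about 1 in 20. Atp5j2 read 13.38 in the knockout animal Mim2-3, against 13.67 to 13.72 in the other knockout animals. Cox7a1 read 6.17 in the knockout animal Mim1-6, against 6.88 to 6.91 in the others of its genotype. Ndufaf4 read 7.62 in wild-type animal 4, against 8.21 to 8.30 in the other wild-type animals.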

How the results depend on the processing

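Across 22 settings no respiratory chain gene passed the adjusted threshold. The 9 genes followed by name gave 189 values, all 189 with the same direction and side of the threshold. The 87 brightest features include 84 in the authors' table of the series, and the filter on dim features kept 86 members. Features called numbered 16 with trend and robust eBayes and 1875 within males, against 0. Members at unadjusted p under 0.05 numbered 1 without both Mim2 arrays (against 6.17% of genes) and 1 within females (against 5.15%). They numbered 1 to 6 when each animal was left out in turn (against 8.64% to 16.5% of genes). On all arrays the count was 7 (8.05% against 14.3%). Members without overlap numbered 11 with array medians centred (12.6%, against 7.9% of genes), 11 with quantile normalization (12.6% against 8.0%), 14 without both Mim2 arrays (16.1% against 16.4%) and 8 to 17 with each animal left out (against 9.81% to 16.5% of genes), where 7 (8.05% against 7.83%) was the count on all arrays as deposited. The median of complex IV was -0.21 without both Mim2 arrays and within females and 0.24 within males, and that of complex V was -0.17 within males. The cause was not tested. No paired analysis was possible because the labels name single animals, give no replicate numbers and tie no knockout animal to a wild-type one (the endings of Mim2-3 and wild-type animal 3 match, but their labelled sex does not). Signal near the random probes limits Cox7b2, Cox8b and the dimmer second features.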
